A study of Mus musculus with 9 samples.

Results

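The G1 cyclins, their kinases and inhibitors are described here as 10 mouse genes: the D-type cyclins Ccnd1, Ccnd2 and Ccnd3, the E-type cyclins Ccne1 and Ccne2, the kinases Cdk4, Cdk6 and Cdk2, and the inhibitors Cdkn1b (p27) and Cdkn2c (p18). They were chosen by name, from all gene probes whose symbol or synonym was among these 10, which gave 20 probes of 40960 kept on the array and 10 gene names of 27617. All 10 genes and 19 of the 20 probes passed the filter on dim probes and were tested, 1 of the probes, of Cdk6, through control cells alone. The series measured total RNA of 3T3-L1 cells, an established line of mouse fibroblast-like preadipocytes that can be turned into adipocytes, on 9 one-colour Agilent arrays. X-1 cells received the compound X-1 at 70 µM for 24 h, X-3 cells received X-3 at the same dose and time, and control cells received neither, with 3 arrays in each group. The series title names both compounds as derivatives of mangiferin, a xanthone glucoside from the mango tree, and they are known here only by these codes. Cells of all 3 groups had been grown in medium with 10% foetal bovine serum and then kept without serum for 48 h, so every group, control included, consisted of serum-starved cells. The line is a single immortal line, and the text of the design gives the arrays as independent experiments.

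Cells pass from G1 into DNA replication when cyclin-dependent kinases phosphorylate the retinoblastoma protein and its relatives, which releases E2F transcription factors. D-type cyclins, made in answer to growth factors, activate CDK4 and CDK6, and E-type cyclins then activate CDK2. p27 mainly holds back the cyclin E and CDK2 complex, and p18, a member of the INK4 group, binds CDK4 and CDK6 and keeps cyclin D off them. Without serum, fibroblasts normally leave the cycle, with low cyclin D1 and high p27.

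A level is given throughout as the log2 of the scanner software's processed intensity minus the 75th percentile of that array, so that 0 is as bright as the probe at that percentile, and levels of different probes are not set against each other. A difference is the log2 difference of group means, and a gene was called where limma's p, adjusted by the Benjamini-Hochberg method over all 16736 genes tested, was under 0.05. Each gene is represented by its brightest probe unless another is named. Between 57.9% and 67.1% of the 43379 gene spots of an array were well above background, and none was saturated. Same-numbered arrays lay on 1 slide, slide 1 was scanned on another day with another software version, and the position on the slide was the same for all arrays of a group, so position and treatment cannot be told apart. On the second principal component of all genes, with 10.9% of the variance, X-3 replicate 1 stood at -72.4 while the other 8 arrays lay between -9.98 and 20.7. For most of the 10 genes, differences of X-3 are therefore also given without that array. All 10 fibroblast and preadipocyte markers (Pdgfra, Pdgfrb, Thy1, Col1a1, Col1a2, Col3a1, Vim, Fn1, Dlk1 and Ly6a) were above background on all 9 arrays. With each compound 3 of them were called higher (Dlk1, Fn1 and Ly6a), beside 28.2% of all genes with X-1 and 29.3% with X-3. Another 3 were called lower (Pdgfra, Pdgfrb and Thy1), beside 28.3% and 26.4%. Ly6a rose by 3.39 with X-1 and 3.59 with X-3, and Pdgfrb fell by 1.42 and 1.20. Of the 6 adipocyte markers none was above background on all 9 arrays and Lep and Cfd on none. Of 6 leukocyte markers, Cd68, Csf1r and Cd14 were above background on all 9 arrays and Adgre1 and Itgam on none. The log2 of that list's summed level was 1.42 to 1.68 on X-1 arrays, 1.72 to 1.88 on X-3 arrays and 0.59 to 0.88 on control arrays, and the part of such cells, and of those of the lists that follow, in the results was not tested. Of 4 epithelial markers Krt8 was above background on all 9 arrays and Epcam and Cdh1 on none. That list's log2 sum was -1.88 to -1.55 with X-1, -1.27 to -1.03 with X-3 and -3.50 to -3.28 in control cells. The log2 sum of 4 muscle markers, of which Myod1 and Acta1 were above background on all 9 arrays and Myog on none, was -2.80 to -1.91 with X-1, -2.28 to -1.32 with X-3 and -1.08 to -0.16 in control cells. That of the adipocyte list was -4.05 to -3.65 with X-1, -3.66 to -3.48 with X-3 and -4.84 to -4.75 in control cells. Of 4 endothelial markers Pecam1, Cdh5 and Kdr were above background on no array and Tek on all 9.

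The probes of 4 genes for which the compounds, or the probes of a gene, are compared are 60 bases long and are shown as the scanner files give them, with the positions of those files on mm9. They are the Cdk4 probe, which separated X-1 from the other groups, a Cdk6 probe that stood still while another Cdk6 probe fell, the brighter Ccne2 probe and the brightest Ccnd2 probe. Capitals mark no part of them, since the whole probe is the target.
Cdk4 (A_51_P437027, chr10:126501967-126502026, plus strand): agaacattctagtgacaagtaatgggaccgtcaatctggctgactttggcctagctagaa
Cdk6 (A_52_P417489, spanning chr5:3473220-3515504, plus strand): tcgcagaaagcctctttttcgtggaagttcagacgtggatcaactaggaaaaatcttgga
Ccne2 (A_52_P58560, chr4:11130171-11130230, plus strand): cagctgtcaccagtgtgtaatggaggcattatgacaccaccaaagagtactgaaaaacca
Ccnd2 (A_51_P433228, chr6:127089187-127089246, minus strand): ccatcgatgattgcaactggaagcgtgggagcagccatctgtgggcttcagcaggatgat
The file's range for that Cdk6 probe covers 42285 bases for 60 bases of probe, so the probe joins parts that lie apart in the genome. No annotation of mm9 was used, so exons and untranslated parts are not assigned.

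With either compound, Ccnd1, Ccne1, Cdk6 and Cdkn2c were called lower at their brightest probes. Another Cdk6 probe stood at 0.03 with X-1 and 0.05 with X-3. The Ccne1 call with X-3 was close to the threshold and was lost when certain single arrays were left out. Cdk4 fell and Ccne2 rose with X-1, and Ccnd2 fell with X-3. Against control, X-1 changed 6 of the 10 genes, beside 56.5% of all 16736 genes called in that comparison. Of these, 5 were lower, beside 28.3% of all genes, and 1 higher, beside 28.2%. X-3 changed 5 of the 10, beside 55.6% of all genes, and all 5 were lower, beside 26.4%. The X-1 and control arrays did not overlap for 7 of the 10, beside 68.5% of all genes, and the X-3 and control arrays for 6, beside 62.2%. By probe, X-1 changed 9 of the 19, 2 higher and 7 lower, beside 54.9% of all 25288 probes, and X-3 changed 8, all lower, beside 54.2%. The shares called in either direction lie near the background, so the counts are no result about these genes, and what follows describes each gene's own values. The median difference of the 10 was -0.54 with X-1 and -0.34 with X-3, against 0.06 for all genes tested in both comparisons. The X-1 and X-3 comparisons use the same 3 control arrays, so their values are given side by side. In these bulk samples fewer cells of a type and less RNA per cell cannot be told apart.

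**Figure D1:**
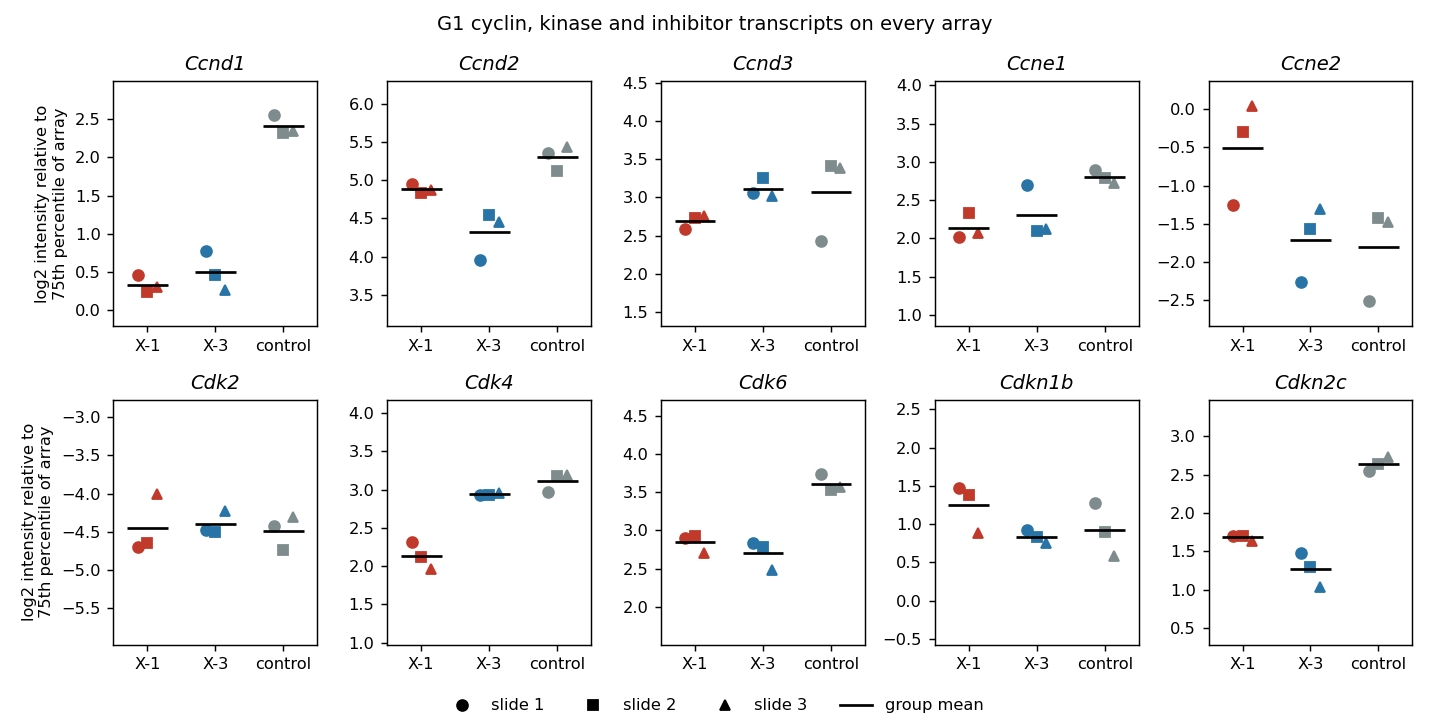
Level of each gene on every array, as log2 intensity relative to the array's 75th percentile, with 1 panel a gene and 3 arrays each of X-1, X-3 and control. Marker shapes are slides and bars are group means, and every panel spans the same height in log2 units. Ccnd1, Cdk6 and Cdkn2c lie lower on every X-1 and X-3 array than on any control array, Cdk4 lies lowest in X-1 with X-3 just under control, and Ccne2 of slide 1 lies lowest in every group.

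Ccnd1, which encodes cyclin D1, the D-type cyclin best known for its response to growth factors, had the largest difference of the 10 with each compound. Its level was 0.47, 0.24 and 0.30 on the X-1 arrays, 0.78, 0.46 and 0.27 on the X-3 arrays, and 2.55, 2.32 and 2.35 on the control arrays. The treated arrays all lay below the control arrays, with a gap several times the spread within any group. Ccnd1 fell by 2.07 with X-1 (SE 0.15, adjusted p = 5.81e-06) and by 1.90 with X-3 (SE 0.15, adjusted p = 1.19e-05) on the log2 scale in limma's test, which is 4.20 and 3.74 times lower than control. Within slides 1, 2 and 3 the difference was -2.09, -2.08 and -2.05 with X-1 and -1.77, -1.85 and -2.08 with X-3. Without X-3 replicate 1 the X-3 difference was -2.04. The single Ccnd1 probe, A_51_P262766, lies at chr7:152116173-152116232 on the minus strand of mm9.

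Ccnd2, encoding cyclin D2, had levels of 4.96, 4.83 and 4.87 on X-1 arrays, 3.96, 4.55 and 4.45 on X-3 arrays, and 5.35, 5.12 and 5.43 on control arrays. The X-3 arrays were the lowest, X-1 lay between, and no groups overlapped. Ccnd2 fell by 0.98 with X-3 (SE 0.17, 95% confidence interval -1.37 to -0.60, adjusted p = 0.00111). Without X-3 replicate 1, its lowest array, the X-3 difference was -0.80 and still called. With X-1 the difference was -0.42 (interval -0.80 to -0.03, adjusted p = 0.0639 in limma's test) and was not called, although scaling to the array median or to spike-in RNA, normexp background correction, a fit of only the 2 groups, a fit with trend and robust variance, and the fit without X-3 replicate 1 called it, at between -0.42 and -1.32. Ccnd2 has the most probes among the cyclins, 3 that lie 9433 and 9449 bases apart on mm9. Their X-3 differences were -0.98, -1.12 and -1.02, all 3 called, and their X-1 differences were -0.42, -0.38 and -0.37, none called. At the probe A_52_P514391, X-3 replicate 1 stood at 2.80 and the other X-3 arrays at 4.12 and 4.13, and without X-3 replicate 1 its X-3 difference was -0.68 and called. That probe's X-3 call was lost without control replicate 1 (-0.97) or control replicate 3 (-1.08).

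Ccnd3, encoding cyclin D3, the D-type cyclin best known from lymphocytes and from late steps of differentiation, was called in neither comparison. It measured 2.59, 2.73 and 2.76 with X-1, 3.05, 3.25 and 3.02 with X-3, and 2.43, 3.41 and 3.38 in control cells. A single array, control replicate 1, was below every other array and made the control spread 0.56 (SD, n = 3), against 0.09 with X-1 and 0.12 with X-3. The differences were -0.38 with X-1 (interval -0.93 to 0.17) and 0.03 with X-3 (interval -0.52 to 0.59). Without control replicate 1 the X-1 difference was -0.70 and was called, and the X-3 difference was -0.29 and not called. Without X-3 replicate 1 the X-3 difference was 0.061. Within slides the difference was 0.16, -0.68 and -0.62 with X-1 and 0.62, -0.16 and -0.36 with X-3, so the X-3 value near 0 averages slides of opposite sign.

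Cdk4 encodes the kinase that binds the D-type cyclins in most tissues. On X-1 arrays it lay at 2.32, 2.13 and 1.96, on X-3 arrays at 2.93, 2.93 and 2.95, and on control arrays at 2.97, 3.17 and 3.20. The X-1 arrays were all below those of both other groups, and the X-3 arrays lay close together just under the control arrays. Cdk4 fell by 0.98 with X-1 (SE 0.13, adjusted p = 1.8e-04), 1.97 times lower than control, and within slides the difference was -0.65, -1.05 and -1.24. With X-3 the difference was -0.18 (interval -0.47 to 0.11, adjusted p = 0.268 in limma's test), which leaves room for a fall of up to 0.47 on this scale. After scaling to spike-in RNA, on slides 2 and 3 only, the X-3 difference was -0.95 and called. On that scale the median of all genes with X-3 was -0.65.

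The promoter of Cdk4 is shown because the gene was called between the compounds. That of Cdk6, like the other genes not called there, is shown as the only other window found to hold CACGTG. The pair was thus chosen on the motif and is no contrast of called with uncalled genes. Whether any motif goes with the Cdk4 difference was not tested. Each is the 250 bases before the RefSeq start on GRCm38.p6, 5′ to 3′, with every CACGTG, the E-box read the same on both strands, in capitals.
Cdk4 (chr10:127063285-127063534, plus strand): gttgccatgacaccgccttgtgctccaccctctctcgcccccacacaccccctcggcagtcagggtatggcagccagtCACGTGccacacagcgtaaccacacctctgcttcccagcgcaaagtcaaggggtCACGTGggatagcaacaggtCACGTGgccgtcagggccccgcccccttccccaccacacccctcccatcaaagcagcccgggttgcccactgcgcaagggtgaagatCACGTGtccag
Cdk6 (chr5:3343643-3343892, plus strand): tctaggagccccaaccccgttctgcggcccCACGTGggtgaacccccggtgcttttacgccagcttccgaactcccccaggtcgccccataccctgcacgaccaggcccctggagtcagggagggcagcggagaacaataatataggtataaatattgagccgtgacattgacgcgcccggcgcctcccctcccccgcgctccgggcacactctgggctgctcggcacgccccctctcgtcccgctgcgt
The Cdk4 window holds 4 matches, the first bases of which lie 172, 118, 98 and 11 bases before the start, and the Cdk6 window holds 1, at 220 bases. CACGTG was present in 6.02% of 32851 RefSeq windows of this length, and 7 windows, 0.0213%, held 4 or more. RefSeq windows matched 7 of the 10 genes, in 9 windows, and the other 5 genes with a window had no CACGTG in it. GGGCGG, a GC box counted on both strands, occurred in 32.7% of all windows and in 7 of these 9, with 5 matches for Cdk2, 4 for Ccne1 and 3 for Cdkn2c. TTTNNCGC, a short form of the E2F site counted on both strands, occurred in 4.28% of all windows and in those of Cdk2 and Cdk6, and TGACGTCA, the cyclic AMP response element, in 1.55% and in none of the 9. These motifs were chosen with earlier results known, a match is only a match of letters, and binding was not measured.

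Cdk6 encodes the other kinase of the D-type cyclins, and its 3 probes gave different values. The brightest probe, A_51_P489779, designed on the record AK030810 and placed at chr5:3529287-3529346, had levels of 2.90, 2.93 and 2.71 on X-1 arrays, 2.84, 2.79 and 2.49 on X-3 arrays, and 3.73, 3.53 and 3.57 on control arrays. Both treated groups lay wholly below control. At this probe Cdk6 fell by 0.76 with X-1 (SE 0.14, adjusted p = 0.00117) and by 0.90 with X-3 (SE 0.14, adjusted p = 4.78e-04). The printed probe A_52_P417489 read -1.90, -2.01 and -2.17 with X-1, -2.13, -1.87 and -2.03 with X-3, and -1.94, -2.05 and -2.19 in control cells. Its groups overlapped throughout, and its differences were 0.03 with X-1 (interval -0.27 to 0.34) and 0.05 with X-3 (interval -0.26 to 0.35), intervals that do not reach those of the brightest probe, -1.08 to -0.45 and -1.22 to -0.59. The difference between probes was not itself tested. The probe A_51_P388310 passed the filter only through control cells, being well above background on 1 of 3 X-1 arrays, 2 of 3 X-3 arrays and 3 of 3 control arrays. A lower value in treated cells was built into that choice, so its differences support nothing here. With the mean of the 3 probes in place of the brightest, the X-1 difference was -0.44 and no longer called. Which transcripts of the gene each probe detects was not tested.

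**Figure D2:**
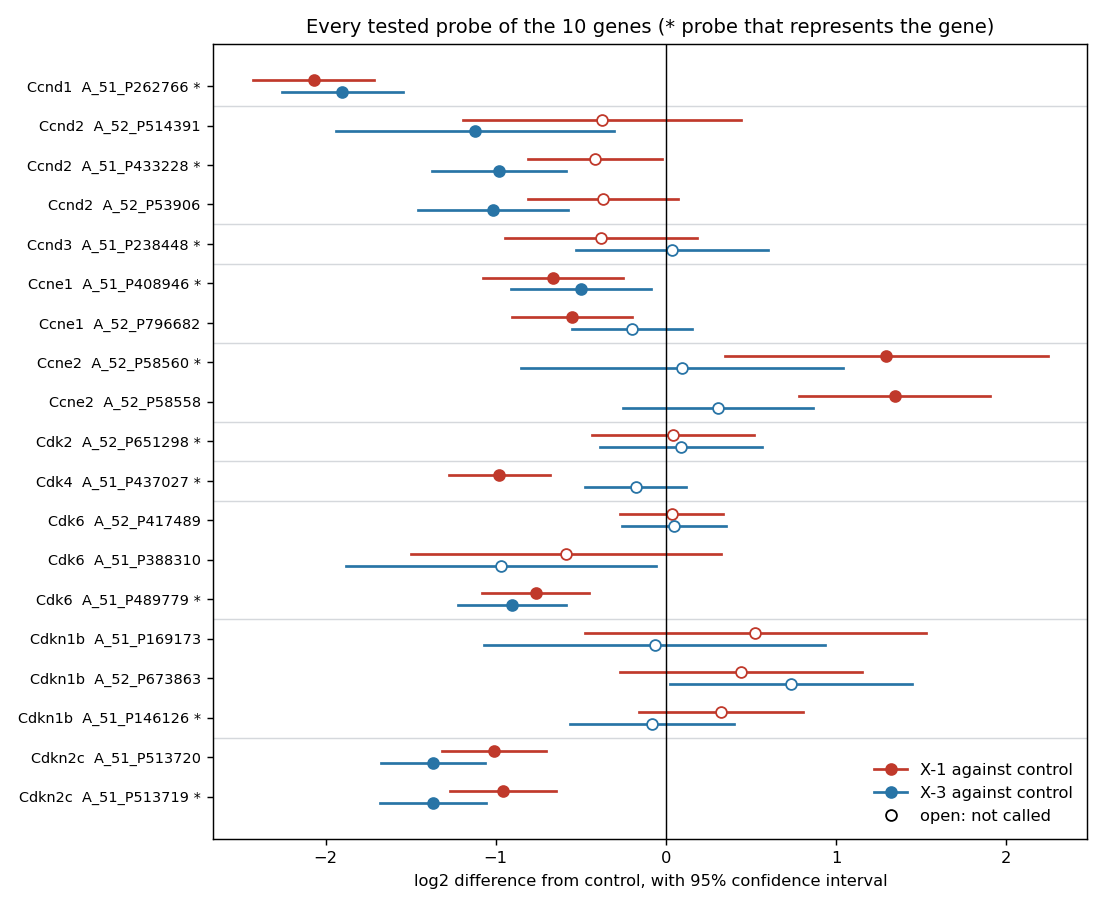
Log2 difference from control with its 95% confidence interval for all 19 tested probes of the 10 genes, X-1 above X-3 for each probe, with filled points called and open points not called. The 3 Ccnd2 probes, the 2 Ccne2 probes and the 2 Cdkn2c probes give alike differences, whereas of the 3 Cdk6 probes A_52_P417489 sits at 0.03 and 0.05 and A_51_P489779 at -0.76 and -0.90, while A_51_P388310 passed the filter only through control cells.

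Ccne1, encoding cyclin E1, measured 2.02, 2.33 and 2.07 on X-1 arrays, 2.69, 2.10 and 2.13 on X-3 arrays, and 2.89, 2.79 and 2.72 on control arrays. All treated arrays lay below all control arrays, with X-3 replicate 1 nearest to them. Ccne1 fell by 0.66 with X-1 (SE 0.18, adjusted p = 0.0109) and by 0.50 with X-3 (SE 0.18, adjusted p = 0.0394). The X-3 call was close to the threshold. It was lost when any of the 3 control arrays, X-1 replicate 3, X-3 replicate 2 or X-3 replicate 3 was left out, at differences between -0.39 and -0.54, and without X-3 replicate 1 the difference was -0.69 and called. The second Ccne1 probe, A_52_P796682, fell by 0.55 with X-1 and differed by -0.20 with X-3, which was called only without X-3 replicate 1 (-0.35) and after scaling to spike-in RNA. The scanner files place both Ccne1 probes on the same 24 bases, chr7:38882937-38882960, although their sequences share no run longer than 6 bases.

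Ccne2, encoding cyclin E2, was the only one of the 10 called higher in any comparison with control. It read -1.25, -0.30 and 0.04 with X-1, -2.26, -1.57 and -1.30 with X-3, and -2.51, -1.42 and -1.48 in control cells. Slide 1 gave the lowest array of every group, so the spread within groups was wide (SD 0.67, 0.49 and 0.61, n = 3 each), yet every X-1 array lay above every control array. Ccne2 rose by 1.30 with X-1 (SE 0.41, interval 0.36 to 2.23, adjusted p = 0.0238 in limma's test), 2.46 times higher than control. Within slides the X-1 difference was 1.26, 1.12 and 1.51. The call was lost without X-1 replicate 2 (1.20), X-1 replicate 3 (1.03) or control replicate 1 (0.94). The second probe, A_52_P58558, which begins 116 bases further along, gave -1.65, -1.19 and -0.99 with X-1, -2.56, -2.28 and -2.09 with X-3, and -3.08, -2.35 and -2.43 in control cells. It rose by 1.34 with X-1 (SE 0.25, adjusted p = 0.00153) and differed by 0.31 with X-3 (interval -0.25 to 0.87). At the brighter probe the X-3 difference was 0.09 (interval -0.84 to 1.03). Without X-3 replicate 1 these X-3 differences were 0.43 at the second probe and 0.37 at the brighter one, neither called.

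Cdk2, the kinase partner of cyclin E, was measured near the dim end of its array and was not called. Its tested probe read -4.70, -4.64 and -4.01 with X-1, -4.48, -4.50 and -4.23 with X-3, and -4.43, -4.74 and -4.30 in control cells, and the groups overlapped. The differences were 0.04 with X-1 (interval -0.43 to 0.51) and 0.09 with X-3 (interval -0.38 to 0.55), the second of which was 0.13 without X-3 replicate 1. The other Cdk2 probe, A_51_P266521, was well above background on 0 of 9 arrays and was not tested.

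Cdkn2c encodes p18, the INK4 inhibitor of CDK4 and CDK6. Its level was 1.70, 1.70 and 1.64 on X-1 arrays, 1.48, 1.30 and 1.03 on X-3 arrays, and 2.55, 2.64 and 2.73 on control arrays. The 3 groups did not overlap, with X-3 lowest. Cdkn2c fell by 0.96 with X-1 (SE 0.14, adjusted p = 2.9e-04), 1.94 times lower, and by 1.37 with X-3 (SE 0.14, adjusted p = 3.78e-05), 2.58 times lower than control. Within slides the difference was -0.85, -0.93 and -1.09 with X-1 and -1.07, -1.34 and -1.70 with X-3. The second probe, A_51_P513720, gave -1.01 and -1.37, but it shares 40 of its 60 bases with the first and is not an independent measurement.

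Cdkn1b encodes p27, the inhibitor that keeps cyclin E and CDK2 idle in resting cells. It measured 1.47, 1.38 and 0.88 with X-1, 0.93, 0.83 and 0.76 with X-3, and 1.28, 0.89 and 0.58 in control cells. The groups overlapped, and neither difference was called, at 0.33 with X-1 (interval -0.15 to 0.80) and -0.08 with X-3 (interval -0.55 to 0.39), the second of which was -0.12 without X-3 replicate 1. Nor was any of its 3 probes called against control. The dimmest, A_52_P673863, read -3.93, -4.32 and -4.07 with X-3 and -4.27, -5.19 and -5.06 in control cells, a difference of 0.73 (adjusted p = 0.0762 over all probes in limma's test) and not called. With X-3 it was called with slide as a replicate block, after normexp (0.45), and without X-1 replicate 1 or control replicate 1 (1.02). With X-1 the same probe differed by 0.44, not called, and was called after normexp (0.44).

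X-3 against X-1 compares the compounds at the same dose and time. They are the only pair of compounds, and what separates their structures is not given by the labels. Cdk4 was the only one of the 10 genes called, 1.74 times higher with X-3, beside 10.9% of all genes called and 7.19% called higher, so the count of 1 is near the background. The X-3 and X-1 arrays did not overlap for 5 of the 10, beside 31.2% of all genes. By probe 2 of the 19 were called, that of Cdk4 higher and 1 of Ccne2 lower, beside 9.36% of all probes. The Cdk4 difference was 0.80 (SE 0.13, interval 0.51 to 1.09, adjusted p = 0.00814), and within slides it was 0.61, 0.80 and 1.00. Every X-3 array lay above every X-1 array, and without X-3 replicate 1 the difference was 0.81 and called. Adjusted over all probes instead of genes, the call was lost without X-1 replicate 2, at 0.80.

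**Figure D3:**
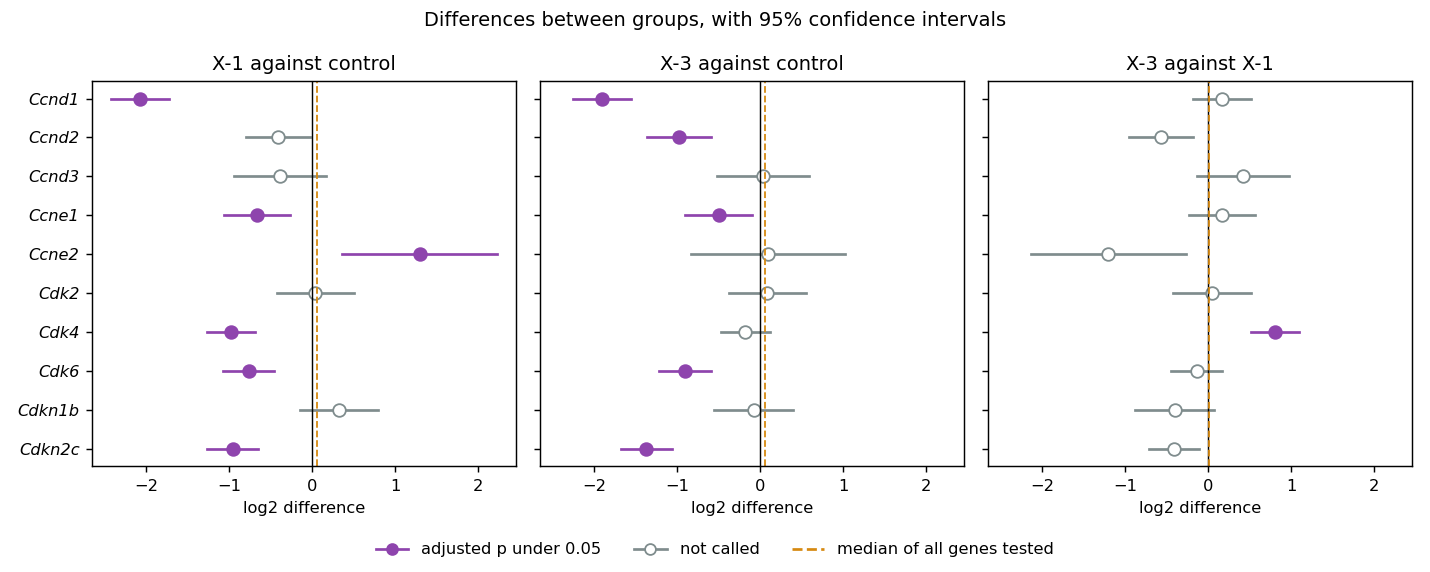
Log2 difference between groups for each of the 10 genes with its 95% confidence interval, for X-1 against control, X-3 against control and X-3 against X-1, with filled points called and the dashed line at the median of all genes. Ccnd1, Ccne1, Cdk6 and Cdkn2c are called lower with both compounds, and Cdk4 is the filled point of X-3 against X-1, at 0.80.

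Ccne2 was lower with X-3 than with X-1 on every array, by 1.20 at the brighter probe (interval -2.13 to -0.27, adjusted p = 0.0966), and this was called with slide as a replicate block (adjusted p = 0.00956, where the other settings gave 0.00491 to 0.281). The second Ccne2 probe was called without the block, at -1.04 (adjusted p = 0.0354 over all probes), although its call was lost without either X-1 replicate 2 (-0.99), X-1 replicate 3 (-0.89), X-3 replicate 2 (-1.05), X-3 replicate 3 (-1.15), or control replicate 2 or 3. Ccnd2 and Cdkn2c were also lower with X-3 on every array without being called, with differences of -0.57 (interval -0.95 to -0.18) and -0.41 (interval -0.72 to -0.11). Without X-3 replicate 1 these were -0.39 and -0.52, and Cdkn2c was then called. Ccnd3 was higher on every X-3 array, with a difference of 0.42 (interval -0.14 to 0.97), not called. For the remaining genes the groups overlapped, and the differences of X-3 from X-1 were 0.17 for Ccnd1 (interval -0.18 to 0.52), 0.17 for Ccne1 (interval -0.24 to 0.57), 0.05 for Cdk2 (interval -0.42 to 0.51), -0.14 for Cdk6 (interval -0.45 to 0.17) and -0.41 for Cdkn1b (interval -0.88 to 0.07). Without X-3 replicate 1 the difference of Ccnd1 was 0.029, that of Ccne1 -0.028, turned in direction, that of Cdk2 0.087, that of Cdk6 -0.21, and that of the brighter Ccne2 probe -0.93. The intervals bound the differences, and do not show that the compounds act alike.

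Across the 9 arrays, the levels of Ccnd1, Cdk6 and Cdkn2c at their brightest probes followed each other, with Pearson's r of 0.96 between Ccnd1 and Cdk6, 0.96 between Cdk6 and Cdkn2c, and 0.92 between Ccnd1 and Cdkn2c. For Cdk6 this holds for that probe only, since the probe A_52_P417489 differed from control by 0.03 with X-1 and 0.05 with X-3. Cdk4 and Ccne2 ran against each other, at -0.77, as did Ccnd3 and Cdkn1b, at -0.80. The arrays share group and slide, and a difference between groups alone can produce such values. Ccnd3 and Cdkn1b, however, were called in no comparison. Control replicate 1 was the lowest control array for Ccnd3 (2.43) and the highest for Cdkn1b (1.28). What their value rests on was not tested. Among all tested genes, those whose levels were most like Ccnd1 were Tial1 (0.998), Rnft2 (0.998) and Cirbp (0.998), over the same 9 arrays. The nearest to Cdk4 were Map4k2 (0.990), Mrpl37 (0.987) and Abca2 (0.987). For the others the nearest gene was Diaph2 for Ccnd2 (0.986), Gtf2a1 for Cdk6 (0.992), St6gal1 for Cdkn2c (0.989), 0610009B22Rik for Ccne1 (0.994), Gm5662 for Ccne2 (0.981) and Scarf2 for Ccnd3 (0.923). Cdkn1b and Cdk2 had no such gene as near, with Trim8 at 0.893 and Cox10 at 0.869.

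The genes around these 10 were taken by list. Their counts stand beside 28.2% of all genes called higher and 28.3% lower with X-1, and 29.3% higher and 26.4% lower with X-3, and a count near those shares is no result about a list. Among 5 other CDK inhibitors, X-1 raised 2 and lowered none, and X-3 raised 2 and lowered 1. The count lowered was 1 with X-1 and 2 with X-3 without X-3 replicate 1, and 0 with X-3 without X-3 replicate 2. Cdkn1a, encoding p21, which inhibits several CDKs and is a known target of p53, rose by 1.98 with X-1 (SE 0.21, adjusted p = 5.56e-05) and by 2.14 with X-3 (SE 0.21, adjusted p = 4.2e-05). Cdkn2b, encoding p15, an INK4 inhibitor like p18, rose by 0.99 and 0.93, opposite to Cdkn2c in direction. Cdkn2d, encoding p19, fell by 0.54 with X-3 and differed by -0.30 with X-1, which was not called, and the X-3 call was lost without X-3 replicate 2 (-0.48). Cdkn1c and Cdkn2a were not called.

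Later cyclins and their kinase were lower with both compounds in 4 of 5 tested genes, of 6 in the list. Ccna2, the S-phase and G2 cyclin, fell by 2.17 with X-1 and by 1.98 with X-3. Ccnb1 and Ccnb2, the mitotic cyclins, fell by 1.90 and 1.65 with X-1 and by 1.42 and 1.64 with X-3, and Cdk1, their kinase, by 1.39 and 1.01. All of these had adjusted p no higher than that of Cdk1 with X-3, 0.00138. The 3 Ccnb1 probes agreed in direction, between -3.62 and -1.90 with X-1. Ccnf was not called, at -0.24 and -0.03.

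Of 9 genes that set or remove activating and inhibiting phosphates on CDKs, 1 rose and 4 fell with X-1, and 1 rose and 3 fell with X-3, where 2 rose without X-3 replicate 1. Cdc25b, a phosphatase that activates CDKs, fell by 1.55 with X-1 and by 1.88 with X-3, and Pkmyt1, a kinase that inhibits CDK1, fell by 1.47 and 1.38. Cdc25c, another such phosphatase, fell by 1.21 with X-1 and differed by -0.55 with X-3, not called, although several other settings, among them slide as a replicate block, called it. After normexp its X-1 difference was -0.57 and not called. Cdk20, a kinase related to the CDK-activating kinase CDK7, rose by 1.49 and 1.69.

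Of 18 genes for the turnover of cyclin D, cyclin E and p27, 6 rose and 4 fell with X-1, and 7 rose and 4 fell with X-3. Cryab, a small heat shock protein that takes part in the FBXO4 ligase for cyclin D1, fell by 3.39 with X-1 and by 2.71 with X-3. Skp1, the adaptor of SCF ubiquitin ligases, rose by 1.37 and 1.25. Rnf123, a subunit of the ligase that acts on p27 in G1, rose by 0.49 with X-1, a call lost without X-1 replicate 2 (0.48) or control replicate 1 (0.37) and after median scaling (0.29), and by 1.17 with X-3. Gsk3b, the kinase that marks cyclin D1 for export and breakdown, rose at its brighter probe by 1.36 and 1.33, but its other probe gave -0.12 and -0.96, so the gene's direction depends on the probe. Skp2, which carries p27 to SCF, was not called, at -0.21 and -0.13.

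**Figure D4:**
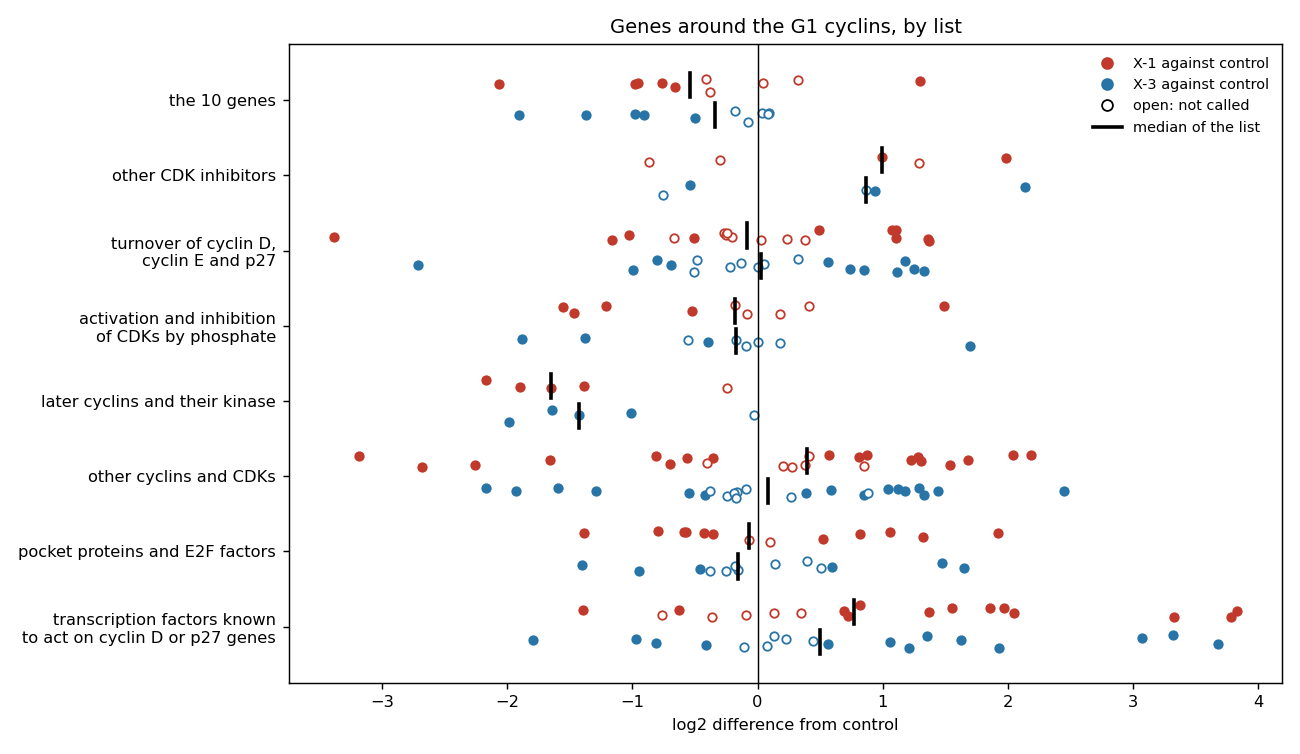
Log2 difference from control of the 10 genes and of the tested genes of 7 lists around them, with X-1 above X-3 in each row, filled points called, open points not called and black bars at each list's median. The medians of the later cyclins and their kinase are -1.65 and -1.42, and those of the transcription factors are 0.77 and 0.50.

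Of 18 tested transcription factors known to act on cyclin D or p27 genes, from a list of 20, 11 rose and 2 fell with X-1, and 9 rose and 4 fell with X-3, where 2 fell without control replicate 3. The median was 0.77 with X-1 and 0.50 with X-3. Fos, Fosl1 and Junb, subunits of the AP-1 factor that acts on the Ccnd1 promoter, rose by 3.83, 3.78 and 3.33 with X-1 and by 3.32, 3.68 and 3.07 with X-3. Klf4 rose by 2.05 and 1.21. Myc, named here after its values were seen because it binds E-boxes and is known to act on Cdk4 and Ccnd2, rose by 1.97 (SE 0.17, adjusted p = 1.6e-05) with X-1 and by 1.62 (SE 0.17, adjusted p = 6.22e-05) with X-3. Ccnd1 thus stood lower on the same arrays on which these factors stood higher, and the relation between them was not tested.

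Among 24 other cyclins and CDKs, X-1 raised 10 and lowered 8, and X-3 raised 10 and lowered 6. Cdk5, a kinase best known from neurons, fell by 3.18 with X-1 and by 1.59 with X-3, and in X-3 against X-1 it differed by 1.59 (SE 0.17, adjusted p = 0.00379). Cdk10 fell by 2.68 and 1.93 and Cdk14 by 2.26 and 2.17. Ccnt1, the cyclin of the elongation kinase CDK9, rose by 2.18 and 2.45. Of 13 pocket proteins and E2F factors, 5 rose and 6 fell with X-1 and 3 rose and 3 fell with X-3. With X-1 replicate 1, control replicate 2 or control replicate 3 left out, 3 fell with X-1, and without X-1 replicate 1, 5 rose with X-3. E2f2 rose by 1.92 and 0.60, E2f1 by 0.52 and 1.65, and Rbl1, which encodes the pocket protein p107, fell by 1.38 and 1.40. The E2f1 call with X-1 was lost without X-1 replicate 1 (0.41), X-1 replicate 3 (0.45), control replicate 2 (0.44) or control replicate 3 (0.49), and after median scaling (0.32), as was the E2f2 call with X-3 (0.39). Tfdp2, a dimer partner of E2F factors, rose at its brightest probe by 1.06 and 1.47, while its lowest probe gave -0.25 and -0.31. Beside Cdk5, the named list genes called in X-3 against X-1 were E2f1 (1.12), E2f2 (-1.33), Cdk10 (0.75), Klf4 (-0.83), Cryab (0.68) and Rnf123 (0.68). The calls of Cdk10, Klf4, Cryab and Rnf123 were lost in some other settings.

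Scaling to spike-in RNA, possible on the 6 arrays of slides 2 and 3, moved the median of all genes to -0.83 with X-1 and -0.65 with X-3. Against these medians Ccnd1, at -2.95 and -2.67, and Cdkn2c, at -1.90 and -2.22, lay below them. Ccne2, at 0.42 with X-1, was above its median but no longer called, and at -0.69 with X-3 it lay near it. This setting also leaves out slide 1. Cdk2 was -0.70 with X-1, against 0.10 and 0.29 within slides 2 and 3 on the percentile scale, and Ccnd3 was -0.96 with X-3, where it was already below 0 within both slides. Among the genes of the lists, Cdkn2b (0.11 with X-1 and 0.15 with X-3) and Skp1 (0.59 and 0.54) were no longer called with either compound, nor was Tfdp2 (0.13 and 0.64). Cdk20 (0.52) and Gsk3b (0.56) were no longer called with X-1, nor Klf4 (0.63) and Rnf123 (0.30) with X-3, and E2f1 and Rnf123 with X-1 and E2f2 with X-3 were below 0. Higher and lower are therefore meant relative to the bulk of the genes on each array, and not per cell.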

How the data were processed

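Per the file headers, the authors scanned 9 one-colour (Cy3) Agilent arrays with Feature Extraction 10.5.1.1 (slide 1) or 10.7.3.1, whereas the submitters' processing notes name 9.1. The deposited intensity is the software's processed signal, after its own background subtraction; 0.5 µg of RNA was labelled per array, per the labels. The deposited series table holds a standardized score, found here to track log2 intensity (correlation 0.998 to 1.000, median -0.12 in every column), used only as an alternative. Here each array's 75th percentile was subtracted from log2 intensity, spots of a probe were averaged, 214 probes with nothing but outlier spots on any array were left out, and the 25288 probes kept were those detected above background by every array of 1 or more groups. Probes were named through RefSeq GRCm38.p6 tables: 24982 by accession, 6296 by symbol, 1624 by synonym, and 8058 kept the file's name. Groups were compared with limma 3.58.1 (R 4.3.3), 2-sided, on all 9 arrays without a block, and tested on simulated data. The design text calls the experiments independent but names no separate cultures, so p-values measure only the spread between these arrays, whose number limits the precision. The 10 genes, the lists and the motifs were chosen with earlier results of these data known. Genes outside the 10 are named by rule: from each list up to 4 called genes with the largest difference from control, and genes by Pearson correlation. The 3 of highest correlation were sought for each of the 10. All 3 are named for Ccnd1 and Cdk4, and only the highest for the others. The correlated genes were sought only among tested genes with a reference symbol, without the 10. Myc, Ccnf, Skp2, Cdkn1c and Cdkn2a were named after their values were seen. Same-numbered arrays share a slide, and their deviations correlated by 0.517, 0.318 and 0.271 for X-1 and control and 0.238, 0.112 and 0.230 for X-3 and control, and by -0.041, -0.182 and 0.156 for X-3 and X-1, so a fit with the replicate number as a block was run. Normexp used median signals, since mean signals were not in all scanner files used. RefSeq promoter windows were used for 7 of the 10 genes.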

Additional observations from a re-analysis of the deposited data

How the results depend on the processing

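Of the alternative values for the 10 genes, 659 kept direction and side of the threshold, 31 values with no test moved by more than the spread between replicates, 13 passed the threshold only under the alternative, 14 no longer passed it and 3 reversed. Spike-in scaling on slides 2 and 3 reversed Cdk2 with X-1 (-0.70), Ccnd3 with X-3 (-0.96), Ccne2 with X-3 (-0.69, probe A_52_P58560), the Cdk6 probe A_52_P417489 with X-1 (-0.86), E2f1 (-0.37) and Rnf123 (-0.52) with X-1, and E2f2 with X-3 (-0.048). That setting also leaves out slide 1, and Ccnd3 with X-3 was below 0 within slides 2 and 3 on the percentile scale too. The spike-in scale itself moves all genes down in the treated groups, and the cause of that shift was not tested. It called 0 of the 10 genes higher and 8 lower with X-1, 8 lower with X-3 and 1 lower (Ccne2) in X-3 against X-1, by probes 0 and 14, 13, and 2. Over all genes it called 1563 higher and 9879 lower with X-1, 1860 and 8330 with X-3, and 274 lower in X-3 against X-1. Median scaling gave 3127 higher with X-1, 3081 with X-3, and 318 and 144 in X-3 against X-1, with 0 probes of the 10 genes lower there. Of the genes called higher or lower, the share called higher with X-1 was 49.9% as reported, 37.9% by median scaling and 13.7% by spike-in, with X-3 52.6%, 38.7% and 18.3%, and in X-3 against X-1 66.3% as reported and 85.3% by spike-in. In X-3 against X-1, normexp called 663 genes higher, no filter 423 higher and 155 lower, and fits of only the 2 groups 547 and 212, each with 0 probes of the 10 genes lower, and normexp gave 1 probe (Cdkn1b) higher with X-3 against control. Normexp also called that Cdkn1b probe higher with X-1 (0.44). With slide as a replicate block, 1 gene (Ccne2) and 2 probes were lower in X-3 against X-1 and 1 probe (Cdkn1b) was higher with X-3 against control, the Ccne1 call of probe A_51_P408946 with X-3 was lost, and no other call of the 10 genes changed. A fit with trend and robust variance called 1 gene lower (Ccnd2) in X-3 against X-1. Without the filter on dim probes, with the mean of its probes (-0.35) or with only the 2 groups fitted, the X-3 call of Ccne1 was lost. Leaving out 1 array at a time, the 10 genes gave 0 to 1 higher and 5 to 6 lower with X-1, 0 to 0 higher and 4 to 5 lower with X-3, and 1 to 1 higher and 0 to 1 lower in X-3 against X-1. Their probes gave 1 to 2 higher and 7 to 8 lower, 0 to 1 and 6 to 9, and 0 to 1 and 0 to 3 in the same order of comparisons. All genes gave 3996 to 5570 higher and 4147 to 5360 lower with X-1, 4248 to 5434 and 3778 to 5089 with X-3, and 484 to 1758 and 143 to 1639 in X-3 against X-1, where lower calls numbered 613 with all arrays and 1639 without X-3 replicate 1. The Cdk4 difference of X-3 from X-1, 0.80, missed the threshold over all probes without X-1 replicate 2. Signal over background limits the dim Cdk2 and Cdk6 probes.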
